A study of Mus musculus with 4 samples.

Results

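Iron and haem handling genes were followed in leukocytes of the mouse left ventricle: the ferritin chains Fth1 and Ftl1, the haem oxygenase Hmox1, the biliverdin reductase Blvrb, the iron exporter Slc40a1 (ferroportin), the endosomal metal transporter Slc11a1 (NRAMP1), the transferrin receptor Tfrc and transferrin itself, Trf. The set was chosen by name, and all 8 genes were found among the 31053 genes of the feature lists of both libraries. In macrophage-like cells Hmox1 averaged 372 ± 334 CPM after DOCA-salt against 199 ± 71.2 CPM in sham (SD, n = 4 mice each), Slc11a1 265 ± 62.1 against 375 ± 49.9 CPM and Trf 599 ± 185 against 780.5 ± 97.7 CPM, but none of the 8 genes passed the test between the groups in any class tested. By class, ferritin RNA was highest in neutrophil-like cells and macrophages, Slc40a1 in neutrophil-like cells, and Trf in macrophages.

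Macrophages take up old red cells and cell debris, open the haem ring with Hmox1, reduce the resulting biliverdin with enzymes such as Blvrb, and either store the freed iron in ferritin or release it through Slc40a1. Cells import iron as transferrin bound to Tfrc, while Slc11a1 moves metal ions out of the phagosome and limits iron for engulfed microbes. In the heart, resident macrophages clear debris shed by cardiomyocytes, which are rich in haem proteins.

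The samples were C57Bl6J mice given sham treatment or DOCA-salt, in which deoxycorticosterone acetate is combined with a high salt intake to make mice hypertensive. Each group held 4 mice whose cells were hashtagged, pooled and run as 1 library, so library and group cannot be told apart. The cells had been digested from perfused ventricle with Liberase and selected for CD45, the surface protein of leukocytes, with beads and by sorting. The labels used here give neither age nor sex nor length of treatment, and the hashtags carry the only link between a cell and its mouse.

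Much of the control of these genes acts on the mRNA after transcription. Iron regulatory proteins bind a hairpin, the iron-responsive element, in iron-poor cells; at the 5′ end of an mRNA this blocks translation, and at the 3′ end it protects the mRNA from decay. The RNA counts below therefore need not follow ferritin or ferroportin protein. The hairpins carried by the members are shown because they divide the set into RNAs with the 5′ element, an RNA with the 3′ element and RNAs without a match. GENCODE M21 transcripts (GRCm38) were searched on the transcript strand for a bulged C, 5 stem bases, the loop CAGTG with a further base other than G, and 5 bases that pair with the stem (G-U pairs allowed). Capitals mark the 6 bases of the loop, and each site lies within 1 exon:
Fth1 5′ UTR (chr19:9982733-9982759, plus strand): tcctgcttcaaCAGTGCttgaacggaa
Ftl1 5′ UTR (chr7:45459780-45459806, minus strand): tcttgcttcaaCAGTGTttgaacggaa
Slc40a1 5′ UTR (chr1:45925466-45925492, minus strand): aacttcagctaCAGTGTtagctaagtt
Tfrc 3′ UTR (chr16:32631220-32631246, plus strand): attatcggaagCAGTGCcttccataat
Tfrc 3′ UTR (chr16:32631599-32631625, plus strand): attatcgggagCAGTGTcttccataat
Tfrc 3′ UTR (chr16:32631664-32631690, plus strand): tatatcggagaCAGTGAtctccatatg
Tfrc 3′ UTR (chr16:32631711-32631737, plus strand): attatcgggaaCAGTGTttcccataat

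The pattern was found in the 5′ UTR of 3 of the 8 genes and of 0.110% of all 20899 genes with an annotated 5′ UTR. In 3′ UTRs it was found in 1 of the 8 genes, at 4 sites, and in 0.461% of all 21685 genes. No match was found in the UTRs of Hmox1, Blvrb, Slc11a1 or Trf, which says only that these letters are not there. Both the genes and the pattern were chosen for their part in iron handling, so these shares are a description and not a test.

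After filtering, 10944 cells were assigned to mice, 624 to 1281 for a sham mouse (1782050 to 4065978 UMIs) and 764 to 2172 for a DOCA-salt mouse (2708758 to 9048096 UMIs). The libraries shared 41 barcodes. A UMI is a counted molecule, and levels are CPM, a gene's UMIs over all UMIs of the same class and mouse on the usual CPM scale, as mean ± SD over 4 mice of a group or over all 8. Macrophage-like cells (301 sham and 717 DOCA-salt) held 11 of the 12 macrophage markers sought, including Csf1r, C1qa, Mrc1 and Adgre1. Summed RNA of 4 haemoglobin genes in these cells was 33.9 to 49.5 CPM in sham mice against 3.33 to 17.9 CPM in DOCA-salt mice, without overlap. It was also lower in the DOCA-salt library in lymphoid classes: 28.2 to 64.1 against 2.97 to 26.5 CPM in T-like cells, 22.2 to 47.0 against 0 to 23.0 CPM in NK-like cells, and at least 50.4 against at most 24.9 CPM in B-like cells. Nonclassical monocyte-like cells had 14.1 to 84.9 against 0 to 43.7 CPM, with overlap, and neutrophil-like cells 0 in both groups. The cause of these differences was not tested. No macrophage-like cell held 10 or more haemoglobin UMIs. Markers of other cells were present too: the summed classical monocyte markers were 761 to 1534 CPM in sham mice against 1651 to 2013 CPM in DOCA-salt, 8 neutrophil markers 21.5 to 58.5 and 62.2 to 337 CPM, and 7 B cell markers 339 to 916 and 355 to 561 CPM. Of the neutrophil markers, 4 were at 0 in all sham mice and 1 in all DOCA-salt mice. The part of these in the macrophage results was not tested.

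The levels across classes are a description with no test, because 6 of the 8 genes were among those used to cluster the cells. Ferritin was abundant in every class. Fth1, the heavy chain that oxidises iron for storage (chr19:9980598-9985098), stood at 11261 ± 3352 CPM (SD, n = 8 mice) in neutrophil-like cells and 6844 ± 1385 CPM in macrophage-like cells. The ranges of these classes over mice overlapped, while no macrophage value overlapped those of the class next in order, the nonclassical monocyte-like cells at 3123 ± 763 CPM. NK-like cells were lowest, at 1344 ± 164 CPM.

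Ftl1, the light chain that helps the iron core form (chr7:45457944-45459884), followed a similar order, with 8874 ± 5062 CPM in neutrophil-like and 6797 ± 1057 CPM in macrophage-like cells. The neutrophil-like mean includes 21222 CPM in sham mouse 3, from 1 cell. In the DOCA-salt mice the 2 classes were alike, at 7283 ± 824 and 7253 ± 1359 CPM. The Ftl1 level in nonclassical monocyte-like cells was 5409.5 ± 729 CPM, against 3123 CPM for Fth1 there. In B-like cells Ftl1 was 1369 ± 91.0 CPM against 3059 ± 186 CPM for Fth1. By UMI count, which with 5′ tags does not scale with transcript length, monocyte-like cells held more light than heavy chain RNA and B-like cells the reverse. Ftl1 has a copy, Ftl1-ps1 on chromosome 13, whose coding sequence is identical at 547 of 549 bases (99.6%), so reads may be split between them. The copy was counted at 277 ± 47.0 CPM in macrophage-like cells.

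Hmox1, which opens the haem ring (chr8:75093621-75100589), was counted in myeloid cells. It reached 285 ± 242 CPM in macrophage-like, 257 ± 148 CPM in nonclassical monocyte-like and 129 ± 67.9 CPM in classical monocyte-like cells, and the ranges over mice of these 3 classes overlapped. Neutrophil-like cells had 129 ± 177 CPM, with 1 UMI in all sham mice. In cDC2-like, B-like, NK-like and T-like cells its mean was 8.39 CPM or less. Of all 2199 Hmox1 UMIs, 64.2% lay in macrophage-like cells, which were 9.30% of the cells.

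Blvrb, which reduces biliverdin and flavins (chr7:27447978-27466144), had its highest mean in macrophage-like cells (260.2 ± 60.1 CPM). B-like cells came next with 121 ± 18.4 CPM, without overlap over mice. They held 51.0% of all its UMIs, similar to their share of the 10944 cells (2352 sham and 3148 DOCA-salt cells). Among the scarce neutrophil-like cells, sham mouse 4 reached 251 CPM from 2 UMIs, within the macrophage range.

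Slc40a1 (chr1:45908068-45926523) is the one known exporter of iron from mammalian cells. Its UMIs were found almost wholly in neutrophil-like and macrophage-like cells, 168 and 154 of 354. Among the 169 neutrophil-like cells, 45 held 1 Slc40a1 UMI, 28 held 2 and 16 held 3 to 7. In the DOCA-salt mice the neutrophil-like levels were 296, 611, 395 and 429 CPM, from 12 to 54 cells each. The sham mice had 450.1, 1698, 0 and 251 CPM, but from 7, 4, 1 and 3 cells, so no comparison between groups was made in this class. Pooled over mice, the share of neutrophil-like cells with a UMI was 53.3% in sham (95% Clopper-Pearson interval 26.6 to 78.7%) and 52.6% in DOCA-salt (44.4 to 60.7%). These intervals cover counting error only and not the spread between mice. By mouse the share was 42.9, 100, 0 and 33.3% in sham and 41.7, 64.2, 45.7 and 48.1% in DOCA-salt. For comparison, 0.213% of sham and 0.222% of DOCA-salt B-like cells, taken as the background class, held a UMI, at a median depth of 2622 and 2900 UMIs against 1866 and 1925.5 in neutrophil-like cells. None of 286 nonclassical or 122 classical monocyte-like cells held a Slc40a1 UMI, which in DOCA-salt allows a share of up to 1.86% and 2.80% of cells with a UMI (3 counts over the number of cells).

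Slc11a1 (chr1:74375195-74386062) was measured in macrophage-like (320.1 ± 78.5 CPM), nonclassical monocyte-like (289 ± 59.0 CPM), neutrophil-like (199 ± 165 CPM) and classical monocyte-like cells (139 ± 52.8 CPM), each overlapping the next over mice. In the dendritic and lymphoid classes it was at most 4.52 CPM on average. Tfrc (chr16:32608920-32632794) was scarce everywhere: its highest class mean was 10.6 ± 8.21 CPM, in cDC2-like cells, and all 220 of its UMIs came from 212 cells. It was 0 in both monocyte-like classes and 3.38 ± 3.13 CPM in macrophage-like cells.

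Trf, the iron carrier of plasma (chr9:103204001-103230444), had its highest mean in macrophage-like cells, at 689.8 ± 168 CPM, which held 71.5% of its 3377 UMIs. Classical monocyte-like cells had 203 ± 88.7 CPM, with 1 sham mouse (359 CPM) above the lowest macrophage value (336 CPM). The cDC2-like cells had 168 ± 83.9 CPM, also with 1 sham mouse (356 CPM) above that value. B-like cells had 7.42 ± 3.37 CPM. At the locus a gene model named Gm20425 overlaps Trf on the same strand, so reads there may be ambiguous.

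**Figure D1:**
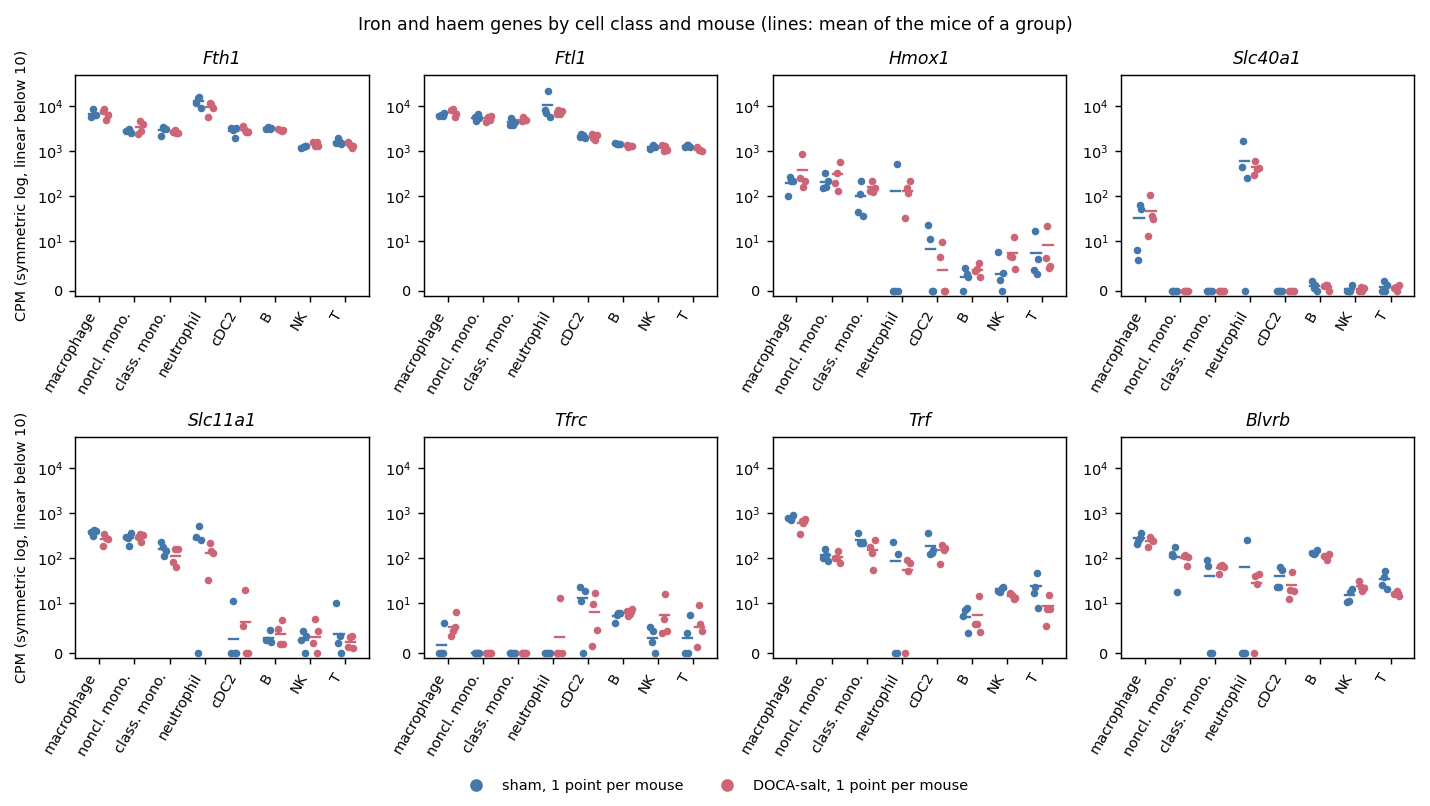
CPM of each gene (vertical axis, symmetric log scale, linear below 10) in 8 cell classes, with 1 point per mouse and a line at the mean of a group's mice. Slc40a1 is near 0 outside macrophage-like and neutrophil-like cells, and Tfrc is low in all classes.

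Whether DOCA-salt changed these genes was asked first in macrophage-like cells, with UMIs summed per mouse and the edgeR quasi-likelihood test, Benjamini-Hochberg adjusted over all genes. Of the 8 genes, 7 were measured and none passed the threshold of 0.05, where 12 of 4641 genes passed (0.259%). Tfrc fell under the filter on low counts.

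The ferritins did not separate the groups. Fth1 was 5691, 8662, 6459 and 6309 CPM in the 4 sham mice and 7857, 8649, 4938 and 6183 CPM in the DOCA-salt mice. DOCA-salt mouse 3 lay below every sham mouse and the rest within their range, and the log2 change was 0.00 (SE 0.17). Ftl1 was 6062, 6366, 5968 and 6967 CPM in sham mice against 8069, 8679, 5726 and 6538 CPM in DOCA-salt. DOCA-salt mice 1 and 2 lay above every sham mouse and mouse 3 below, at a log2 change of 0.17 (SE 0.13, adjusted p = 0.825).

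Hmox1 was 99.0, 268, 216 and 211 CPM in the sham mice. In the DOCA-salt mice it was 245, 871, 154 and 220 CPM, so DOCA-salt mouse 2 stood apart while the other 3 lay within the sham range. The log2 change was 0.85 (SE 0.41, adjusted p = 0.598), and without DOCA-salt mouse 2 it was 0.03. Most of the excess came from single cells. In DOCA-salt mouse 2, 1 cell held 180 and another 168 of the 602 Hmox1 UMIs, 57.8% together, and in DOCA-salt mouse 1 a cell held 123 of 440, while the highest cell of any sham mouse held 23.

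A cut of 40 Hmox1 UMIs, chosen after the values were seen, left 5 cells among all classes. All came from DOCA-salt mice, which gave 6864 of the 10944 cells. They were not of 1 kind: 4 were macrophage-like, from the clusters led by Socs3 (2 cells), Lyve1 and Stmn1, and 1 was nonclassical monocyte-like, with 78 Hmox1 UMIs. Hmox1 made up 2.04%, 1.84% and 2.68% of all UMIs in the 3 highest cells. Ferritin was plentiful in the same cells, with Fth1 at 3.80%, 5.73% and 7.22% of UMIs. Only the cell of the Lyve1-led cluster also held Slc40a1 (24 UMIs), with 16 of Blvrb and 5 of the haemoglobin scavenger receptor Cd163. None of the 5 held a haemoglobin UMI. Without these cells the Hmox1 level was 177, 327, 154 and 220 CPM in DOCA-salt mice, a mean of 219 ± 76.5 CPM against 199 ± 71.2 CPM in sham. No sham cell reached the cut, so leaving these cells out could lower the DOCA-salt mean only. The fall is a description and not a test.

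Slc40a1 was 8.25, 6.16, 64.4 and 52.0 CPM in sham mice against 12.8, 107, 36.0 and 30.9 CPM in DOCA-salt macrophage-like cells, which rests on 31 UMIs in sham and 123 in DOCA-salt. The groups overlapped, at a log2 change of 0.39 (SE 0.69, adjusted p = 0.972). DOCA-salt mouse 2 was again highest, and its 2 richest cells held 52.7% of its Slc40a1 UMIs.

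Slc11a1 was 379, 305, 421 and 395 CPM in sham mice against 185, 336, 278 and 262 CPM in DOCA-salt macrophage-like cells. Only DOCA-salt mouse 2 reached into the sham range. The log2 change was -0.53 (SE 0.19, adjusted p = 0.353 by edgeR), and it was negative under all 22 alternatives (-0.67 to -0.37), without a call. Pooled over the mice of a group, 55.8% of sham and 51.3% of DOCA-salt macrophage-like cells held a Slc11a1 UMI. With each cell thinned to 1500 UMIs and 93 sham and 117 DOCA-salt cells of lower depth left out, the shares were 46.2% (39.2 to 53.2%) and 25.8% (22.4 to 29.5%). These intervals cover counting error only. The depth cut left out 30 of 46 sham and 22 of 138 DOCA-salt cells of the Stmn1-led cluster, which is described below and was low in Slc11a1. DOCA-salt mouse 1, the lowest in Slc11a1, gave 326 of the 717 DOCA-salt cells before thinning. The part of cluster mix and of this mouse in the pooled shares was not tested.

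Trf was 775, 739, 690.4 and 917 CPM in sham mice against 336, 683, 618 and 760 CPM in DOCA-salt, where 3 of the mice lay below all sham mice. Its log2 change was -0.42 (SE 0.21, adjusted p = 0.615). Blvrb was 206, 243, 287 and 370.0 CPM in sham mice against 174, 301, 257 and 242 CPM in DOCA-salt, with overlap and a log2 change of -0.25 (SE 0.21, adjusted p = 0.83). Tfrc was found as 2 UMIs in sham, both in mouse 4, and as 15 in DOCA-salt, 1 to 6 per mouse. DOCA-salt mouse 1 was lowest in Trf, Slc11a1 and Blvrb. Its macrophage-like cells also differed in make-up, with 14.4% in the Lyve1-led cluster described next against 36.7 to 57.1% in the other 7 mice.

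**Figure D2:**
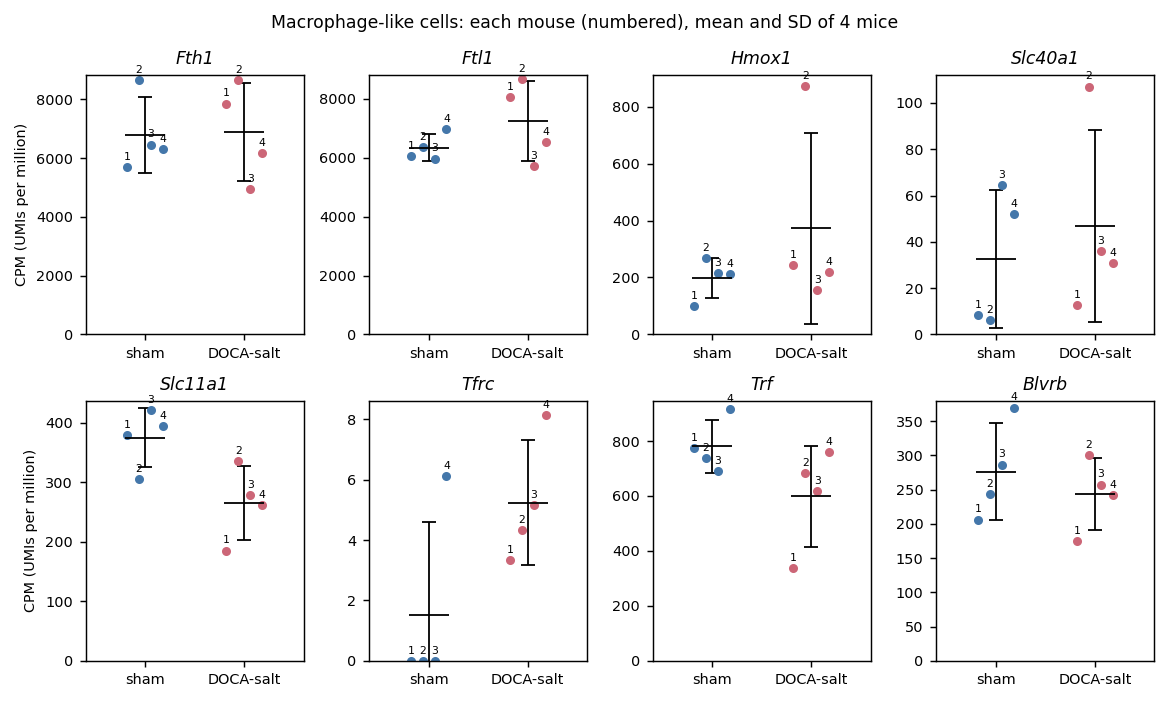
CPM of each gene in macrophage-like cells, with each mouse as a numbered point and the mean and SD of 4 mice per group. Hmox1 of DOCA-salt mouse 2, at 871 CPM, lies above the other 7 mice (99.0 to 268 CPM), and Slc11a1 of 3 DOCA-salt mice lies below all sham mice.

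Macrophage-like cells were split into 4 clusters, each called by its leading gene. The first (356 cells) was led by Lyve1, Ccl24 and Gpr34, the second (309 cells) by Socs3, Fos and Egr1 with Fn1, the third (184 cells) by Stmn1, Wfdc17 and Spp1, and the fourth (169 cells) by Tmcc3, Tanc2 and Vav3. Their median depth was 4089, 5084, 2474 and 1161 UMIs per cell. The fourth had 4.85% mitochondrial UMIs against 1.92 to 2.05% in the others. Differences between clusters are a description, since the clusters were made with these genes.

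Ferritin and Blvrb stood out in the Stmn1-led cluster. Fth1 averaged 12551 ± 4039 CPM over 8 mice in the Stmn1-led cluster, 1.92 times the level of the Lyve1-led cluster (6548 ± 1025 CPM) and higher in 8 of 8 mice. For Ftl1 the ratio was 2.12, again in 8 of 8 mice. Both ferritins were lowest in the Tmcc3-led cluster, at 2368 ± 863 and 2520 ± 439 CPM. Blvrb followed ferritin in the Stmn1-led cluster, at 403 ± 111 CPM, with the Lyve1-led cluster at 335 ± 64.6 CPM and the Socs3-led cluster at 162 ± 80.2 CPM.

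Trf and Slc11a1 had other orders, with Trf lowest in the Socs3-led and Slc11a1 lowest in the Stmn1-led cluster. Trf was 902 ± 75.2 CPM in the Lyve1-led and 1081 ± 319 CPM in the Tmcc3-led cluster, against 517 ± 274 CPM in the Stmn1-led and 379.5 ± 102 CPM in the Socs3-led cluster. Slc11a1 was 90.0 ± 59.6 CPM in the Stmn1-led cluster, lower in 8 of 8 mice than in the Lyve1-led cluster (358 ± 80.8 CPM). Slc40a1 averaged 56.1 ± 57.6 CPM in the Lyve1-led and 79.5 ± 68.6 CPM in the Tmcc3-led cluster, against 12.6 ± 19.0 CPM in the Socs3-led cluster. The summed RNA of 10 genes that respond to tissue digestion was 5327 to 23310 CPM per mouse in the Socs3-led cluster and 1597 to 2402 CPM in the Lyve1-led cluster, and its part in these differences was not tested.

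**Figure D3:**
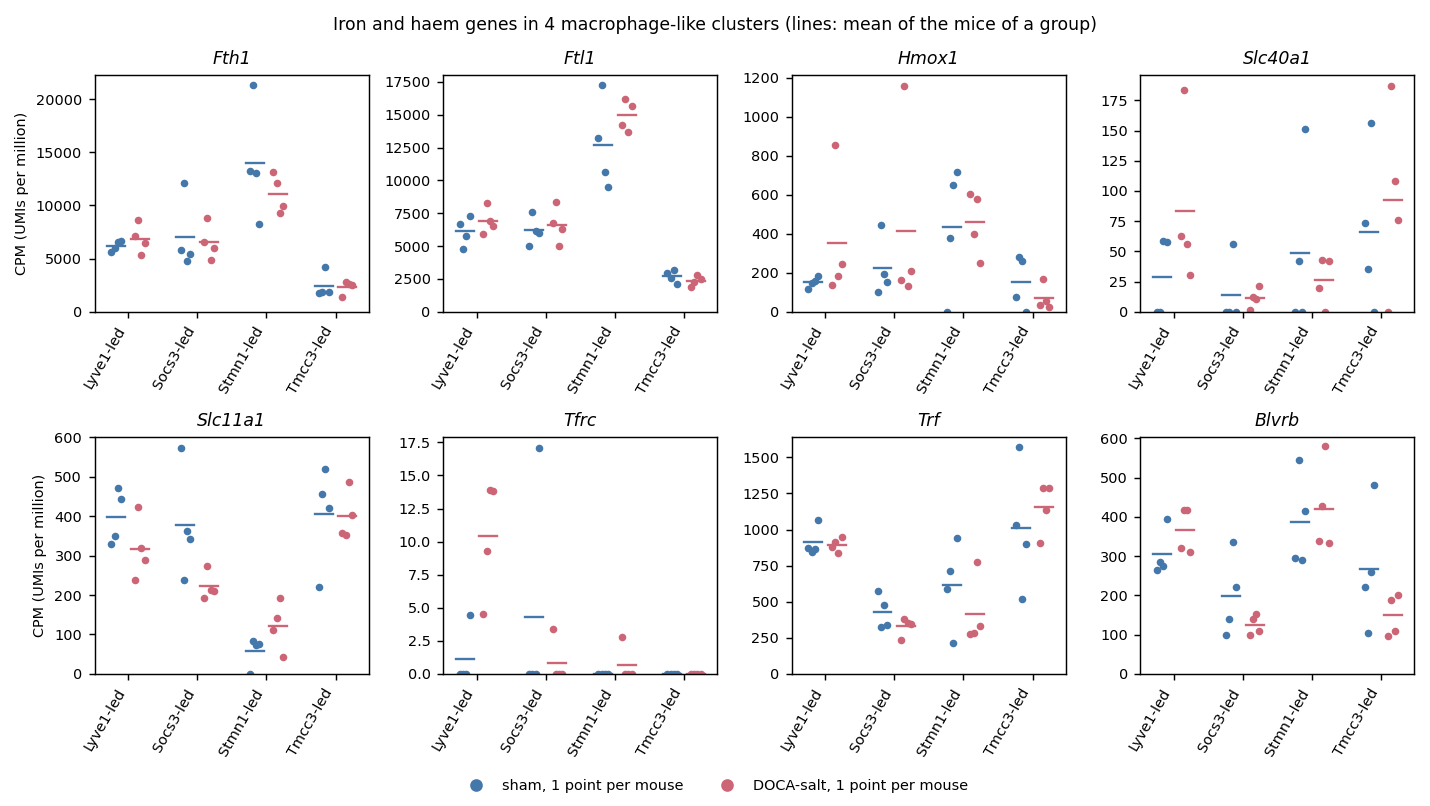
CPM of each gene in the 4 clusters of macrophage-like cells, with 1 point per mouse and a line at the mean of a group's mice. Fth1 and Ftl1 are highest in the Stmn1-led cluster, where Slc11a1 is lowest, and Trf is highest in the Lyve1-led and Tmcc3-led clusters.

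Within clusters no gene of the set passed the test between DOCA-salt and sham either. Over all genes, 0.914% passed in the Lyve1-led cluster (27 of 2955), 0 in the Socs3-led (0 of 1476 by edgeR and by DESeq2, with 85 at p under 0.05 before adjustment), 0.893% in the Stmn1-led (3 of 336) and 4.52% in the Tmcc3-led cluster (14 of 310). In the Lyve1-led cluster, Hmox1 was 115, 146, 157 and 182 CPM in sham mice against 135, 855, 181 and 244 CPM in DOCA-salt. DOCA-salt mouse 2 again stood apart, and the log2 change of 1.26 (SE 0.41, adjusted p = 0.216) was 0.29 without it. Slc40a1 in this cluster was 0, 0, 58.8 and 57.7 CPM in sham mice against 63.0, 183, 55.7 and 30.5 CPM in DOCA-salt, at a log2 change of 1.36 (SE 0.61, adjusted p = 0.487). The value for Hmox1 passed when DOCA-salt mouse 1 was left out (1.55, adjusted p = 0.0491), and both genes passed with no filter on low counts.

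Trf overlapped between the groups in the Lyve1-led cluster, at 872, 845, 863 and 1065 CPM in sham against 877, 914, 836 and 948 CPM in DOCA-salt (log2 change -0.06, SE 0.13, adjusted p = 0.943). Its change in the Stmn1-led cluster was -1.06 (SE 0.41, adjusted p = 0.305). Slc11a1 was 573, 238, 362 and 342 CPM in sham mice against 193, 275, 213 and 210.3 CPM in DOCA-salt in the Socs3-led cluster, at a log2 change of -0.74 (SE 0.28, adjusted p = 0.805), and its change in the Lyve1-led cluster was -0.37 (SE 0.19, adjusted p = 0.576). In the Tmcc3-led cluster its change was -0.15 (SE 0.32, adjusted p = 0.869). In the Stmn1-led cluster, where it was under the filter, Slc11a1 was 58.0 ± 38.9 CPM in sham against 122 ± 63.4 CPM in DOCA-salt, from 5 and 52 UMIs, with 3 DOCA-salt mice above every sham mouse. Tfrc was under the filter in every cluster; in the Lyve1-led one it was 0, 0, 0 and 4.44 CPM in sham mice against 4.50, 9.33, 13.9 and 13.9 CPM in DOCA-salt, from 1 and 10 UMIs.

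Nonclassical monocyte-like cells, which patrol vessel walls, gave 6 measured members and no call, against 2.07% of all genes (45 of 2171). Hmox1 was 147, 317, 159 and 212 CPM in sham mice against 189, 322, 131 and 576 CPM in DOCA-salt, a log2 change of 0.61 (SE 0.32, adjusted p = 0.468). DOCA-salt mice 2 and 4 lay above every sham mouse, and mouse 4 held the monocyte with 78 Hmox1 UMIs. Fth1 was 2756, 2872, 3136 and 2474 CPM in sham mice against 2379, 4551, 2818 and 3998 CPM in DOCA-salt (log2 change 0.29, SE 0.16, adjusted p = 0.491).

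Classical monocyte-like cells, recruited from blood, were too few in sham for the test, with 5, 5, 1 and 4 cells. Their Fth1 level was 2919 ± 549 CPM in sham mice against 2642 ± 175 CPM in DOCA-salt, and Trf was 253 ± 71.1 and 154 ± 82.2 CPM. Hmox1 was 102 ± 84.2 CPM in sham, from 10 UMIs in all, and 156 ± 41.8 CPM in DOCA-salt. All of these overlapped.

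Among the lymphoid classes, the ferritins of B-like cells were lower in every DOCA-salt mouse than in any sham mouse, by a small step that did not pass the test. Fth1 was 3098, 3367, 3097 and 3249 CPM in sham mice against 3024, 2918, 2805 and 2911 CPM in DOCA-salt B-like cells (log2 change -0.14, SE 0.06, adjusted p = 0.296). Ftl1 was 1489, 1463, 1403 and 1433 CPM against 1327, 1235, 1311 and 1291 CPM (-0.17, SE 0.05, adjusted p = 0.173). Blvrb was 131, 126, 131 and 151 CPM against 112, 104, 90.7 and 123 CPM (-0.31, SE 0.10, adjusted p = 0.169). The groups did not overlap for these 3 genes. How many of all genes did not overlap was not counted, in this class or any other, so the lack of overlap is a description only. Before adjustment, 13.3% of all genes in this class had p under 0.05 by edgeR. None of the 5 measured members passed, where 1.81% of all genes did (159 of 8791). One sham B-like cell held 20818 haemoglobin UMIs, and the fit without cells of 10 or more haemoglobin UMIs changed none of the member calls.

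In T-like cells the log2 change was also negative for Ftl1, Fth1 and Blvrb. In NK-like cells it was negative for Ftl1 (-0.12, SE 0.09, adjusted p = 0.752 by edgeR) but positive for Blvrb and Fth1. In NK-like cells Blvrb was 10.5, 11.2, 17.7 and 21.1 CPM in sham against 30.8, 22.7, 18.7 and 21.6 CPM in DOCA-salt, with 3 DOCA-salt mice above every sham mouse (log2 change 0.52, SE 0.29, adjusted p = 0.628), and the change in Fth1 was 0.15 (SE 0.08, adjusted p = 0.600). In T-like cells Blvrb was 24.7, 38.5, 50.6 and 20.5 CPM in sham mice against 16.0, 16.9, 18.4 and 14.7 CPM in DOCA-salt, without overlap (log2 change -0.89, SE 0.27, adjusted p = 0.271). Ftl1 was 1213, 1382, 1338 and 1235 CPM in sham mice against 1207, 1048, 1032 and 1010 CPM in DOCA-salt (-0.24, SE 0.08, adjusted p = 0.312). Fth1 in T-like cells changed by -0.24 (SE 0.10, adjusted p = 0.491 by edgeR). Trf, at a mean of 16.6 CPM there, changed by -1.15 (SE 0.44, adjusted p = 0.444 by edgeR). None of the members passed in T-like cells (0.393% of all genes, 27 of 6872), in NK-like cells (0.892%, 59 of 6613) or in cDC2-like cells (0 of 1064 by edgeR and by DESeq2, with 60 at p under 0.05 before adjustment). In NK-like cells Trf was 17.9 to 22.3 CPM in sham mice against 12.5 to 16.9 CPM in DOCA-salt, without overlap, at a log2 change of -0.52 (SE 0.28, adjusted p = 0.600).

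The DOCA-salt effect in macrophage-like cells was then set against that in lymphoid cells of the same mice. Ftl1 had the lowest adjusted p of the set, with a difference of 0.44 on the log2 scale (SE 0.17, adjusted p = 0.550 by edgeR), and Fth1 had 0.33 (SE 0.17, adjusted p = 0.750). The lymphoid profile summed B-like, NK-like and T-like cells, 2352, 539 and 466 in sham and 3148, 1260 and 1003 in DOCA-salt. Against B-like cells alone the difference was 0.37 for Ftl1 (SE 0.16, adjusted p = 0.604 by edgeR) and 0.18 for Fth1 (SE 0.16, adjusted p = 0.895). None of the 7 measured members passed, where 0.0394% of all genes did (4 of 10146).

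**Figure D4:**
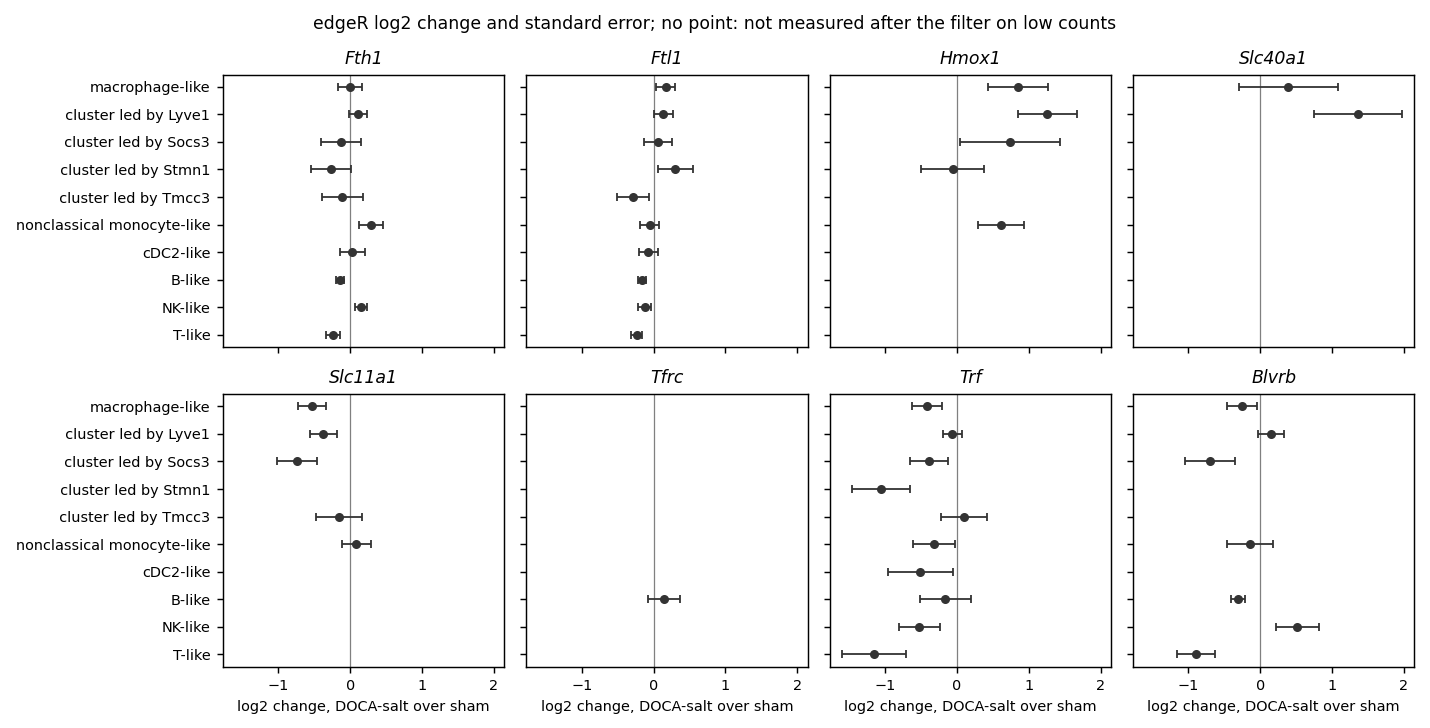
Log2 change of each gene between DOCA-salt and sham (horizontal axis) with its standard error, in the 6 classes and 4 macrophage clusters with enough cells for the edgeR test. None of the points passed the adjusted threshold of 0.05. Hmox1 lies above 0 in 4 of 5 fits, and Slc11a1, where measured, lies below 0 in all but the nonclassical monocyte-like cells. The macrophage-like fit shares cells with the clusters and all fits share the same mice, so these are not separate results. Without DOCA-salt mouse 2 the Hmox1 change in macrophage-like cells was 0.03.

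The surface antibodies give a readout that the clustering did not use. In each of 8 mice, macrophage-like cells were split at the median level of an antibody, and a gene's level was compared between cells above and below it by a two-sided exact permutation test over mice. With 7 antibodies there were 56 pairs, 14 had p under 0.05, and none passed after adjustment over the pairs (lowest adjusted p = 0.0875, exact p = 0.00781 being the smallest that 8 mice allow). Antibody levels and RNA come from the same cells. Cells high and low in CD11c had a median of 3162 and 3054 UMIs.

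Cells high in CD11c, an integrin of dendritic cells and some macrophages, had lower values for the haem and export genes. Slc40a1 was 24.1 CPM in CD11c-high and 55.5 CPM in CD11c-low cells, lower in 8 of 8 mice, with a difference of -1.11 ± 0.54 (SD, n = 8 mice) on the log2(CPM + 10) scale. Blvrb was 198 against 323 CPM, also lower in 8 of 8 mice (-0.68 ± 0.24), but in 5 of 8 mice with each cell thinned to 1500 UMIs (-0.43 ± 0.55). Hmox1 was 174 against 401 CPM (-0.87 ± 0.79, lower in 7 of 8 mice, exact p = 0.0234, adjusted p = 0.119) and Trf 576 against 810.0 CPM (-0.47 ± 0.33, but -0.09 when thinned). Fth1 was 7287 against 6380.4 CPM, higher in CD11c-high cells in 6 of 8 mice (exact permutation p = 0.0781, adjusted p = 0.243).

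CD44, the hyaluronan receptor, was split in the same way. Trf was 558 CPM in CD44-high and 875 CPM in CD44-low cells (-0.66 ± 0.35, lower in 8 of 8 mice), and Slc11a1 was 278 against 376 CPM (-0.42 ± 0.28, 8 of 8 mice, but -0.15 when thinned). CD44-high cells were also deeper, with a median of 3766 UMIs against 2681, and with each cell thinned to 1500 UMIs the difference in Trf was -0.69. CD39, an ectoenzyme that degrades ATP, went the opposite way: Trf was 824 CPM in CD39-high and 566 CPM in CD39-low cells (0.60 ± 0.52, higher in 7 of 8 mice, exact permutation p = 0.0156, adjusted p = 0.109). Slc11a1 was lower in galectin-3-high cells in 8 of 8 mice, at 276 against 366 CPM (-0.36 ± 0.37), but in 5 of 8 mice when thinned (-0.15 ± 0.48).

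**Figure D5:**
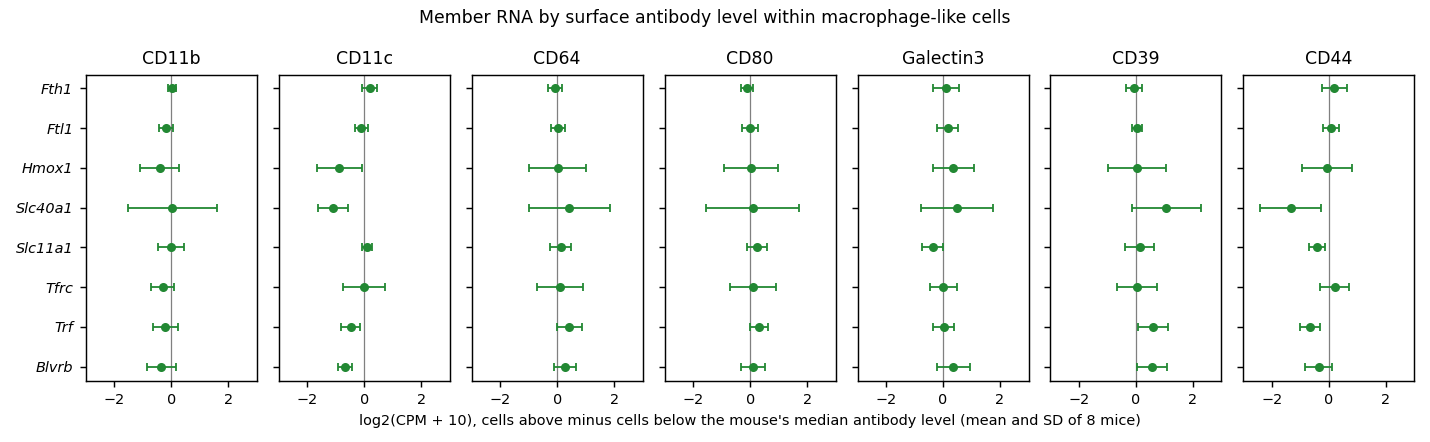
Difference in log2(CPM + 10) of each gene between macrophage-like cells above and below the mouse's median level of 7 surface antibodies, as mean and SD of 8 mice. Slc40a1, Blvrb, Hmox1 and Trf lie below 0 for CD11c, and Trf and Blvrb lie above 0 for CD39.

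Of 79 other genes of iron and haem biology, 30 were measured in macrophage-like cells and none passed the test, where 0.259% of all genes did (12 of 4641). Their median log2 change was 0.09, against 0.01 for all genes, and 13.3% had p under 0.05 before adjustment, against 8.68% of all genes. The 4 genes were Gpx4, Lrp1, Nfe2l2 and Slc25a39. Gpx4, which repairs oxidised membrane lipids with glutathione, was 207 CPM in sham mice against 307 CPM in DOCA-salt (log2 change 0.51, adjusted p = 0.353). Nfe2l2, the factor NRF2 that drives Hmox1 and the ferritins under oxidative stress, was 373 against 282 CPM (-0.44, adjusted p = 0.478).

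Of 10 genes listed for haem and haemoglobin capture and haem transport, 4 were measured and none passed, where 0.259% of all genes did. Their median log2 change was 0.32, from only 4 genes, against 0.01 for all genes, and this difference was not tested. Cd163, a capture receptor, was 199 against 319 CPM (log2 change 0.56, adjusted p = 0.803), and Lrp1, a receptor for haem bound to haemopexin, 223 against 302 CPM (0.40, adjusted p = 0.555). Without DOCA-salt mouse 1 the change in Cd163 was 0.93 (adjusted p = 0.0224 by edgeR). Leaving out 1 mouse gave 2 to 25 calls over all genes in this class. DOCA-salt mouse 1 had 14.4% of these cells in the Lyve1-led cluster, against 36.7 to 57.1% in the other mice. The part of this in the value was not tested. In haem breakdown, Hmox2 was 173 against 186 CPM and Blvra 64.0 against 73.9 CPM. Of the storage and chaperone genes, Ncoa4, which delivers ferritin to lysosomes, was 58.2 against 53.9 CPM, Pcbp1 364 against 415 CPM and Pcbp2 536 against 555 CPM. Mitochondrial genes were split, with 4 of 8 measured above 0, Slc25a39 at 72.1 against 98.5 CPM (0.47, adjusted p = 0.563) and Isca2 at 57.9 against 49.1 CPM. The regulator Aco1 (IRP1), which binds the hairpins printed above, was 43.8 against 28.3 CPM (-0.39, adjusted p = 0.833).

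One gene of these lists passed in nonclassical monocyte-like cells, 1 of 15 measured where 2.07% of all genes passed, and 1 in B-like cells, 1 of 47 where 1.81% did. Both are named after the values were seen. Hp, haptoglobin, which binds free haemoglobin, rose in nonclassical monocyte-like cells from 170, 176, 173 and 106 CPM in sham to 553, 349, 688 and 492 CPM in DOCA-salt. The groups did not overlap, and the log2 change was 1.63 (SE 0.23, adjusted p = 1.7e-04 by edgeR). It passed under every alternative run, at 3.80 with each library clustered on its own. Hp was also among the leading genes of the classical monocyte-like cluster, and the part of such cells in this value was not tested. Smad7, an inhibitor of BMP and TGF-beta signalling listed here for its part in hepcidin control, fell in B-like cells, with 73.7 ± 8.45 CPM in the sham mice, 44.1 ± 4.84 CPM in the DOCA-salt mice and no overlap (log2 change -0.72, SE 0.11, adjusted p = 0.00301).

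The genes with the class pattern most like each member were ranked by Pearson's r of log2(CPM + 10) over 12 profiles (8 classes and the 4 macrophage clusters, which share cells with their class), among 3556 genes that reached 100 CPM in a profile. For Ftl1 the closest were its copy Ftl1-ps1 (r = 0.984), Dstn (0.954) and Bri3 (0.941), and for Fth1 Map1lc3a (0.912), Ftl1 (0.904) and Ftl1-ps1 (0.884). Slc11a1 was most like Dusp6 (0.990), Pla2g7 (0.978) and Nfe2l2 (0.977). Trf was most like Gnpda1 (0.977), Hexa (0.976) and Adam15 (0.973), the first 2 being a hexosamine enzyme and a lysosomal hexosaminidase. Hmox1 was most like Dstn (0.947), Fcgr3 (0.936) and Ifi204 (0.935), Slc40a1 like Ski (0.957) and Per1 (0.953), Blvrb like Snx8 (0.896), Ccl24 (0.892) and Myl2 (0.891), and Tfrc, with few counts, like Tmem123 (0.868), Trp53i11 (0.83) and Ptbp1 (0.826).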

How the data were processed

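The deposited matrices contain UMI counts, made by the authors with Cell Ranger (matrix software 3.1.0, per the file headers) and not normalised. They cover 31053 genes, 4 hashtags and 16 surface antibodies. The submitters' processing notes also list mm10 and Seurat 4. The other deposited files, gene and barcode names, are text without measurements. Kept barcodes had 200 or more genes, no more than 10% mitochondrial UMIs, no Scrublet doublet call (53 sham and 243 DOCA-salt were removed) and a first hashtag of at least 2 times the second (136 and 321 had no clear hashtag). The 4080 sham and 6864 DOCA-salt cells had a median of 2811.5 and 3228 UMIs.

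Cells were clustered with scanpy 1.11.5 and leidenalg 0.10.2 (2000 variable genes, 30 components, 15 neighbours, resolution 1.0). Macrophage-like cells were clustered again at resolution 0.3, a value chosen after the data were seen. A cluster needed 3 listed markers for a name, and 3 of 18 stayed unnamed, 1 of them 395 cells with B cell and macrophage markers. Counts were summed for each class and mouse and tested with edgeR 4.0.16 in R 4.3.3 (filterByExpr, TMM) where 3 mice of each group had 5 cells or more. The procedure was tested on simulated data. DESeq2 1.42.0, other normalisation, filters and clusterings and leaving out each mouse were alternatives. The members and lists were chosen with earlier results of these data known. Other genes were named by rule: up to 3 of each list by largest change in macrophage-like cells among those of at least 20 CPM, and the 3 most alike in class pattern, of which 1 is not reported here. Exceptions are marked as such. Gene positions are those of GENCODE M21. Intervals are exact binomial (Clopper-Pearson, scipy 1.17.1), and the limit for a count of 0 is 3 counts over the number of cells.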

Additional observations from a re-analysis of the deposited data

Results flagged for a closer look

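Among 128 groups of 4 mice with at least 20 UMIs of a gene, 13 had 1 mouse far from the other 3 by Dixon's test, where chance gives about 5%. Hmox1 of DOCA-salt mouse 2 was such a value in 4 of them. It was 871 CPM in macrophage-like cells (154 to 245 in the other DOCA-salt mice), 855 CPM in the Lyve1-led cluster (135 to 244), 1158 CPM in the Socs3-led cluster (132 to 210.3) and 21.0 CPM in T-like cells (4.60 to 6.53). The macrophage values share cells.

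Trf was the gene in 5 groups. It was 359 CPM in classical monocyte-like cells (212 to 221 in the other sham mice) and 356 CPM in cDC2-like cells (123 to 148) of sham mouse 1. In DOCA-salt mouse 3 it was 14.4 CPM in B-like cells (4.22 to 5.87) and 773 CPM in the Stmn1-led cluster (279.6 to 334). In sham mouse 4 it was 1065 CPM in the Lyve1-led cluster (845 to 872), where Blvrb was 395 CPM (263 to 286).

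The ferritins gave the remaining 3. Fth1 was 12070 CPM in the Socs3-led cluster of sham mouse 2 (4768 to 5828) and 4164 CPM in the Tmcc3-led cluster of sham mouse 3 (1771 to 1862). Ftl1 was 21222 CPM in the 1 neutrophil-like cell of sham mouse 3 (5652 to 8027).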

How the results depend on the processing

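No paired analysis was possible because a hashtag number marks a mouse within its own library and does not match mice across the groups. Of 825 values of member changes under alternatives, 763 kept direction and side of the threshold, and 55 changed sign without a call. With no filter on low counts, 1 member passed in macrophage-like cells (Hmox1, 0.91, adjusted p = 0.00169) and 2 in macrophage clusters, Hmox1 (1.32, 9.15e-07) and Slc40a1 (1.42, 0.0266), both in the Lyve1-led one. Leaving out 1 mouse gave 0 to 1 calls in macrophage clusters, the 1 being Hmox1 without DOCA-salt mouse 1. With each library clustered on its own, 1 member passed in monocyte classes and 2 in other classes: Slc11a1 in nonclassical monocyte-like cells turned from 0.09 to -0.83 (adjusted p = 0.0198), and in B-like cells Ftl1 was -0.31 and Trf -1.67. The cause was not tested. Calls over all genes moved by over 1.5 times: macrophage-like 12, from 2 to 25 without 1 mouse and 5 to 142 otherwise; nonclassical 45, 26 to 594; B-like 159, 84 to 294; NK-like 59, 30 to 118; T-like 27, 19 to 188; cDC2-like 0, 0 to 42; Lyve1-led 27, 9 to 64; Socs3-led 0, 0 to 29; Stmn1-led 3, 0 to 10; Tmcc3-led 14, 0 to 22. Macrophage clusters were not refitted under other clusterings or cell filters, and classical monocyte-like and neutrophil-like cells were not fitted. Slc40a1 and Tfrc rest on 154 and 17 UMIs in macrophage-like cells. The fits without the Stmn1-led or the Tmcc3-led cluster were added after seeing the data.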
